A study of Homo sapiens with 2 samples.

Results

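The regions described here are 128 long stretches of the human genome in which crosslink sites of hnRNPM lay close together on 1 strand. They were found by sorting the authors' site list by chromosome and position and starting a new stretch wherever the chromosome or the strand changed or the gap between neighbours exceeded 50 kb. All stretches with 50 or more sites were kept. They held 9316 of the 54373 sites (17.1%) and were 128 of 6345 stretches of any size. The regions were thus chosen by the position, strand and number of sites, so their size, density and strand are a description and were not tested. Heights, tag clusters and the direction from the 5′ to the 3′ end of the RNA strand were not used in the choice.

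The sites came from iCLIP of HMLE, a human mammary epithelial cell line made immortal in culture. Cells of wild-type genotype given DMSO were crosslinked with ultraviolet light, and hnRNPM was precipitated with an antibody. The 2 libraries are biological replicates by their labels, share genotype and agent, and form the only group. The authors deposited 1 list for the series, with 1 value per site and no library named. No spread between replicates and no depth can therefore be given, and all values below are descriptions with no p-value. The list was taken as combined over both libraries, which the sources do not state.

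hnRNPM, one of the heterogeneous nuclear ribonucleoproteins, binds GU-rich RNA through RNA recognition motifs and regulates alternative splicing. In mammary epithelial cells it is known for steering splice choices, among them that of CD44, during the epithelial-mesenchymal transition. In iCLIP, reverse transcription tends to stop at the crosslinked base, so a pile-up of stops marks a position where the protein touched RNA. RNA abundance was not measured here, so density and height cannot be told apart from the amount of RNA made at each locus.

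The list names no gene. The gene names used below are background knowledge of the GRCh37 gene map (the build of the list) and were not read from a GRCh37 annotation, which was not used here. They were checked without comparing positions between builds. In GENCODE release 29, an annotation on GRCh38, the gene named for a stretch was on the same chromosome and the same strand for 128 of 128 stretches. The named genes also followed each other in the same order as the stretches on 22 of the 22 chromosomes with a stretch. On chromosomes 18, 20 and 21, with 1 stretch each, the order could not fail. Names were assigned by chromosome, order and strand, so these matches cannot tell a gene from a neighbour on the same strand. Of the 128 genes, 126 were protein-coding and the others, PVT1 and FTX, were long noncoding RNA genes. In 6 stretches a second gene of the same strand is known to lie in the run, and all 6 matched in chromosome and strand. In 3 more, named for MICAL2, MEMO1 and NCK1, the stretch was longer than the gene, so that at least these 9 ran beyond 1 gene. Which sites fall in exons, introns or untranslated regions was not analysed here.

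The stretch with the most sites lay at SMYD3, which encodes a lysine methyltransferase, on chromosome 1 (minus strand, 246053090 to 246716629). It held 147 sites over 664 kb, the longest span of all, at 22.2 sites per 100 kb and with a median height of 14. Height is the authors' whole-number score of a site, read here as the number of truncation events. Its first site stood 47.0 kb apart from the other 146.

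The next lay at EXT1, which encodes a glycosyltransferase that builds heparan sulfate chains, on chromosome 8 (minus strand, 118827397 to 119121458). Its 144 sites took only 294 kb (48.97 per 100 kb), and their median height of 24.5 was exceeded in 1 other stretch, that of HMGA2 with 25. PVT1 followed, the long noncoding RNA gene beside MYC, on chromosome 8 (plus strand, 128807595 to 129101584). It held 120 sites over 294 kb with a median height of 21.5. EXT1 and PVT1 thus had almost the same span.

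ASAP1, an Arf GTPase-activating protein of focal adhesions, had 116 sites over 304 kb on chromosome 8 (minus strand, 131150371 to 131454826). The formin gene FMNL2 had 115 sites over 287 kb on chromosome 2 (plus strand, 153193460 to 153479978). PTK2, the gene of focal adhesion kinase, shared a run with AGO2, a core protein of RNA silencing, on chromosome 8 (minus strand, 141585739 to 142003639). That run held 113 sites over 418 kb. TRIO, a guanine nucleotide exchange factor, had 112 sites over 313 kb on chromosome 5 (plus strand, 14145798 to 14458365).

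The first 10 were completed by a Hippo kinase, a growth factor receptor and a cadherin. STK3, the Hippo kinase also called MST2, had 113 sites over 349 kb on chromosome 8 (minus strand, 99487651 to 99837002). IGF1R, the receptor of insulin-like growth factor, had 112 sites over 214 kb on chromosome 15 (plus strand, 99192765 to 99406502) and was, at 52.4 per 100 kb, the densest of the 10. CDH13, a cadherin without a cytoplasmic tail, had 109 sites over 360 kb on chromosome 16 (plus strand, 82663300 to 83023166). Its median height of 11 was the lowest of the 10.

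**Figure D1:**
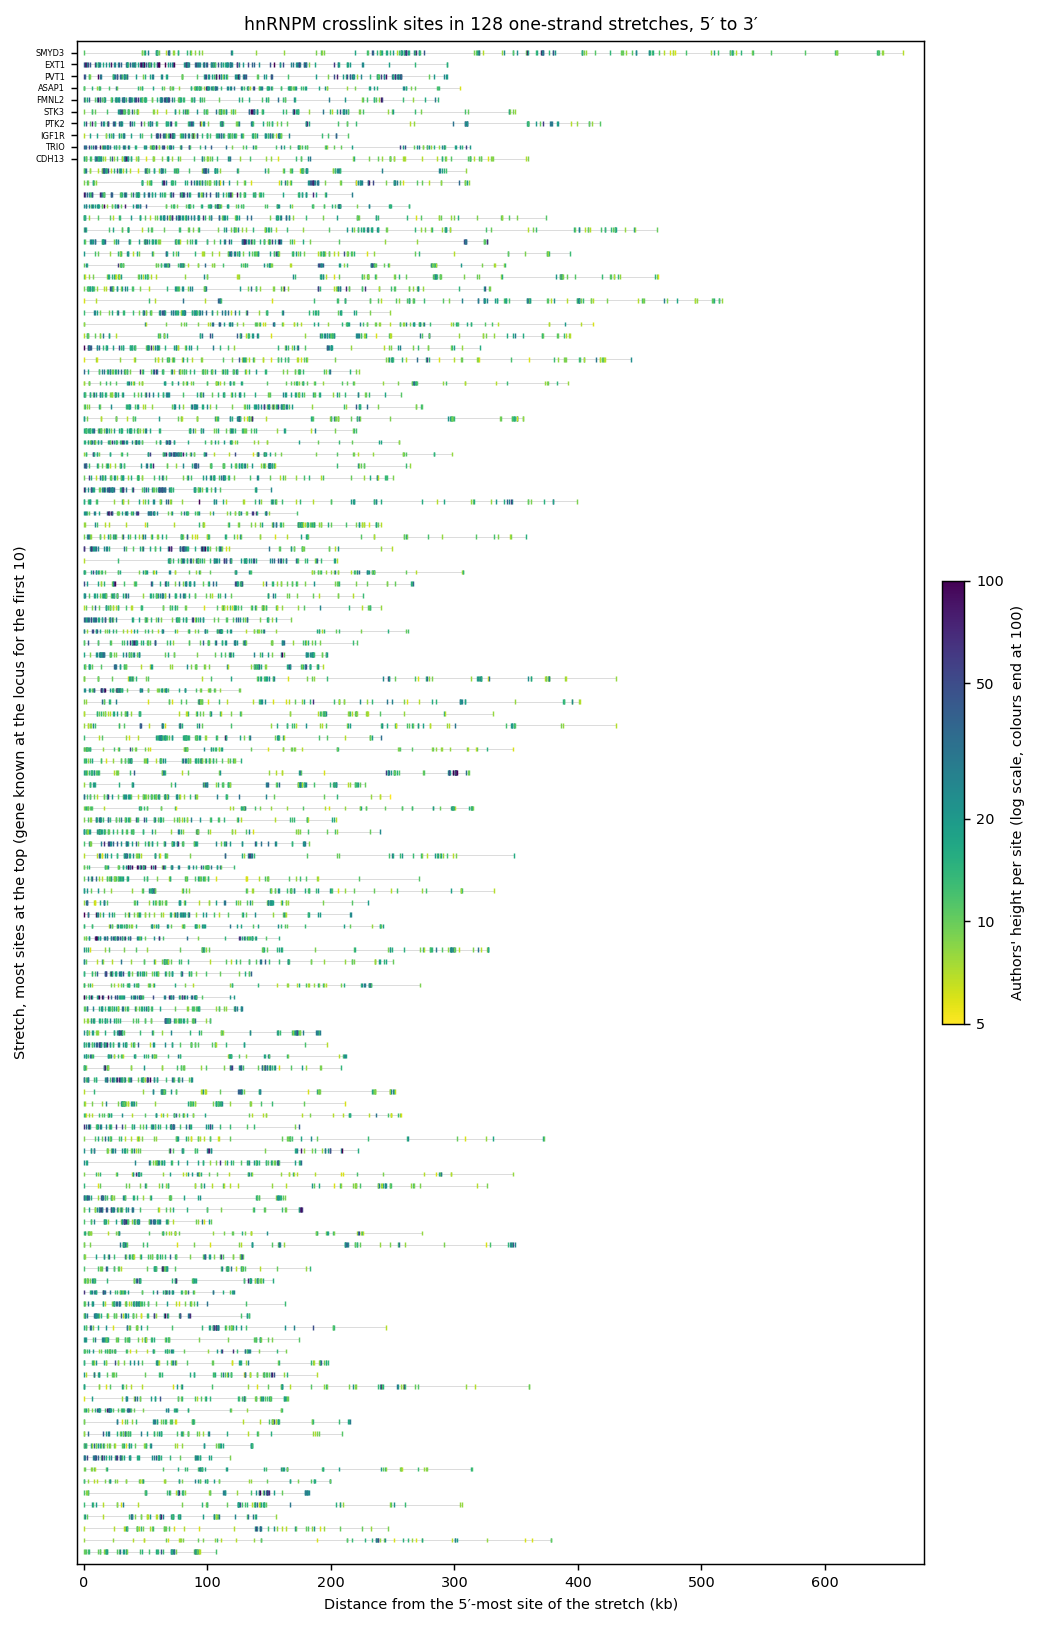
Every site of the 128 stretches as a tick, with the distance from the 5′-most site in kb on the x axis and 1 row per stretch, ordered by number of sites from 147 at the top to 50 at the bottom and with the gene known at the locus given for the first 10. Colour is the authors' height on a log scale, and ticks crowd toward the left, 5′, side in most rows (106 of 128 had more inner sites there).

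Across the 128 stretches the number of sites had a median of 68.5 and reached 147. The span ran from 87.6 to 664 kb, with a median of 247 kb and quartiles of 183 and 326 kb. The density ran from 13.2 to 66.2 sites per 100 kb around a median of 29.7, against a median of 23.5 in the 1504 stretches of 10 to 49 sites. Longer stretches were sparser: Spearman's rho between span and density was -0.713 (n = 128), a relation partly fixed in advance because every stretch holds at least 50 sites and density is sites over span. Denser stretches had taller sites, with a rho of 0.681 between density and median height (n = 128). The points share both libraries, and the authors' expected height, written PH0 in the site names, also went with density (rho 0.668).

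The densest stretches were short. XKR6, of the XK-related membrane protein family, had 58 sites in 87.6 kb on chromosome 8 (minus strand, 10966916 to 11054531) (66.2 per 100 kb), with a median height of 21. NUDCD3, a chaperone-associated gene linked to dynein, had 61 sites in 103 kb on chromosome 7 (minus strand, 44426962 to 44529589) (59.5 per 100 kb).

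At the other end of the range were long, thin runs. After SMYD3, the longest spans were 517 kb in the run of VCL, which encodes the adhesion protein vinculin, with ADK, which encodes adenosine kinase (chromosome 10, plus strand, 75760939 to 76277748, 91 sites), and 465 kb in VPS13B, a lipid transfer protein gene (chromosome 8, plus strand, 100038616 to 100503624, 95 sites). No site of VPS13B was taller than 30. The lowest density, 13.2 per 100 kb, was found in TRAPPC9, a gene of a vesicle tethering complex, whose median height of 9 was shared with EXOC4 and MICAL2 as the lowest.

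**Figure D2:**
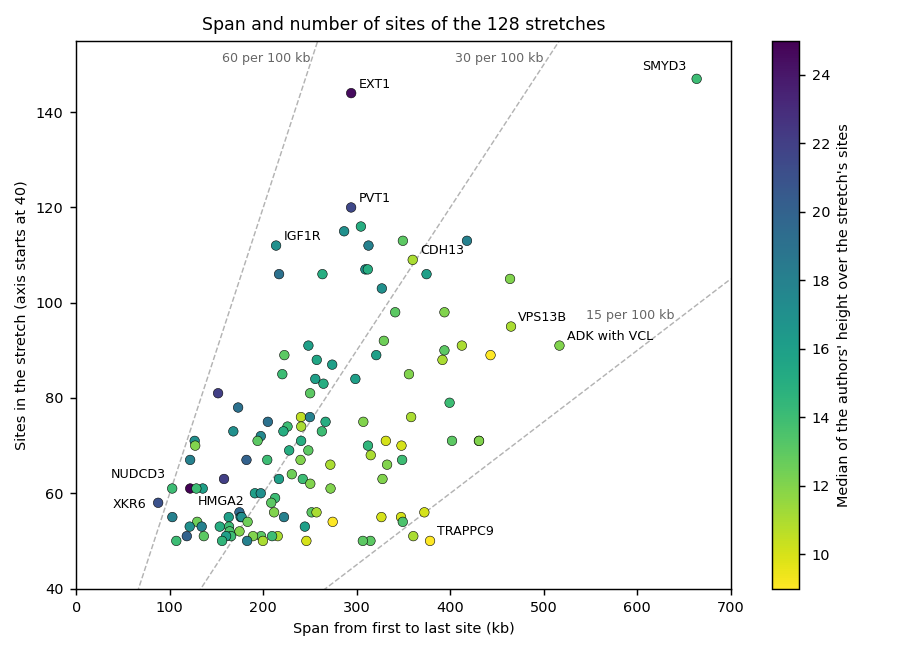
Span in kb (x axis) against number of sites (y axis, starting at 40) of the 128 stretches, coloured by the median of the authors' height, with dashed lines of equal density. XKR6, at 87.6 kb, lies above the line of 60 per 100 kb, and SMYD3, at 664 kb and 147 sites, stands apart at the upper right.

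The genes were long. The gene named for a stretch had a median length of 333 kb in GENCODE 29, and 127 of 128 exceeded 100 kb. Of 19940 protein-coding genes 18.1% did, and their median was 27.2 kb. Much of this difference was fixed in advance. The rule keeps only runs of 50 or more sites, whose spans ran from 87.6 kb upward, and each gene was named for its run. The exception was NCK1 at 87.6 kb, where the stretch covered 183 kb. In the 119 stretches not known or found to run beyond 1 gene, the span was a median of 72.3% of the gene's length (quartiles 56.0% and 88.7%). At least 80% was reached in 45 of them, such as RERE, a transcriptional corepressor (99.7%), ZFAND3 (97.5%) and ANKRD11, a chromatin regulator (97.3%). In 20 it was under 50%, among them TBC1D5 (27.0%), COG5 (28.3%), XKR6 (28.7%) and CDH13 (30.7%). Spans are of GRCh37 and gene lengths of GRCh38, so these shares are approximate, and where in the gene a partial stretch lay was not measured.

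Sites were denser toward the 5′ end. The outermost 2 sites of each stretch define its span, so only inner sites were counted. The 5′ side of the midpoint held more inner sites than the 3′ side in 106 of 128 stretches (82.8%) and fewer in 19, and the sides were equal in 3. The median share on the 5′ side was 63.0% (quartiles 53.2% and 72.3%). At least 70% lay there in 40 stretches (31.3%), close to the 433 of 1504 (28.8%) among stretches of 10 to 49 sites, and at most 30% in 2 (1.56%), against 231 (15.4%). Averaged over stretches with equal weight, and with the span cut into 10 equal parts numbered from the 5′ end, the share of inner sites was 14.3% in part 1. It was lower in each following part, down to 6.36% in part 10. An even spread would give 10% in each. Without the 9 stretches that ran beyond 1 gene, 102 of 119 leaned to the 5′ side (85.7%).

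In stretches of 10 to 49 sites the 5′ side held more inner sites in 872 of 1504 (58.0%), and in the most similar class, 30 to 49 sites, in 169 of 243 (69.5%). Within the long stretches the share was 80.5% for 50 to 74 sites (n = 82) and 87.0% for 75 or more (n = 46). These counts of a direction depend on how many sites a stretch has. The median share of inner sites on the 5′ side was 60.5% for 30 to 49 sites and 60.7% for 50 to 74, almost the same, and 64.9% for 75 or more. The profile of the stretches of 10 to 49 sites also differed in form, with 14.5% in part 1, 7.45% in part 9 and 12.3% in part 10. Small numbers of sites make the lean of a single short stretch less precise, and none of these differences was tested.

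**Figure D3:**
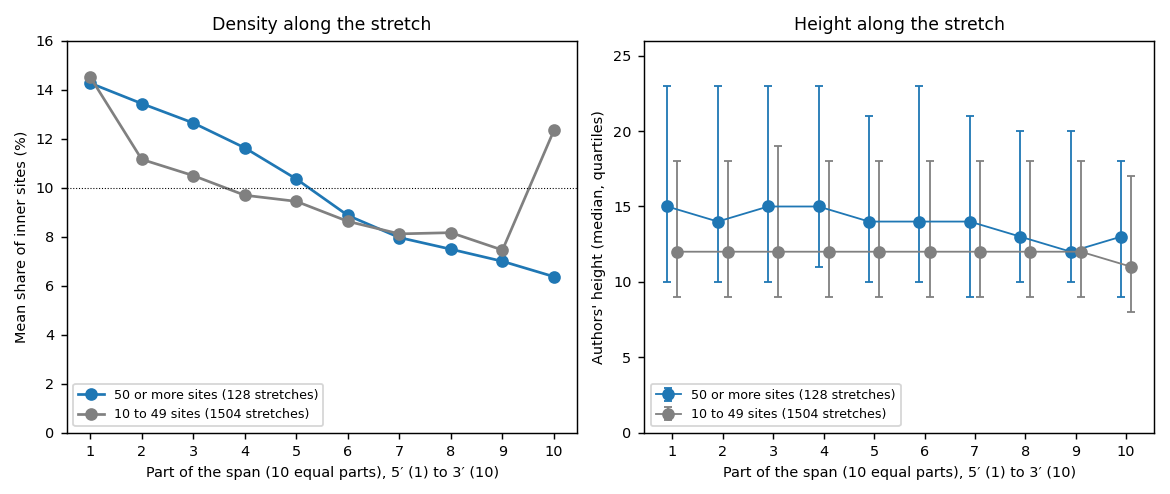
Left, mean share of inner sites in 10 equal parts of the span from 5′ (1) to 3′ (10), with a dotted line at 10%; right, median and quartiles of the authors' height per part, for stretches of 50 or more sites (blue) and of 10 to 49 sites (grey). In the long stretches the share went from 14.3% to 6.36%, and the median height from 15 to 13.

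The strongest lean to the 5′ side was seen in MICAL3, an actin-oxidising monooxygenase gene that shared its run with BID, a gene of apoptosis (chromosome 22, minus strand, 18234873 to 18483093). There 59 of 67 inner sites (88.1%) lay on the 5′ side, and a gap of 40.6 kb separated the last 6 sites from the 63 before them. AKAP13, an A-kinase anchor protein gene (chromosome 15, plus strand, 85924965 to 86180639), had 71 of 82 there (86.6%). TCF12, a helix-loop-helix transcription factor gene (chromosome 15, plus strand, 57215955 to 57413311), had 50 of 58 (86.2%). All 3 thinned out over a long 3′ part: in TCF12 only 2 of 60 sites followed a gap that ran from 130 to 179 kb.

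A few stretches leaned the other way. EXOC6B, a subunit gene of the exocyst, had 16 of 74 inner sites (21.6%) on the 5′ side (chromosome 2, minus strand, 72808259 to 73048613). Its part 8 of 10 alone held 29 of 76 sites, and 19 sites lay within 10 kb. The run of VCL with ADK had 23 of 89 (25.8%) on the 5′ side, where VCL is known to lie upstream of ADK. MNAT1, an assembly factor of the kinase that activates cyclin-dependent kinases, had 23 of 67 (34.3%) with a span of 96.8% of its gene (chromosome 14, plus strand, 61202499 to 61430233).

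Heights in the long stretches were somewhat above those elsewhere. The 9316 sites had a median height of 14 (quartiles 10 and 22), against 12 (9 and 18) in stretches of 10 to 49 sites and 9 (7 and 13.3) in stretches of 1 to 9 sites. The quartile ranges overlap widely. Sites of height 40 or more made up 7.48% of the members and 3.81% of all other sites. The members held 20.7% of the summed height of the list with 17.1% of its sites. The expected height was higher as well, with medians of 0.67 in members and 0.49 in all others, while height divided by expected height had medians of 22.2 and 24.0.

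The single tallest site of the list, of height 1969, lay outside the long stretches, and the tallest site in a long stretch had a height of 414. That site was in EXT1, from 119055635 to 119055655, 65.8 kb from the 5′ end. Next came a site of height 203 in PCNX1, a membrane protein gene of the pecanex family (chromosome 14, 71406264 to 71406284), and one of 197 in the run of TULP4, a tubby-family gene, with TMEM181 (chromosome 6, 159038225 to 159038245). A site of height 100 or more was present in 26 of the 128 stretches (20.3%), against 66 of 1504 (4.39%) of those of 10 to 49 sites. A stretch with more sites has more chances to hold one. Such sites made up 0.526% of the members, 0.349% of sites in stretches of 10 to 49 and 0.317% of all sites outside the long stretches. Among the 26 were HMGA2, an architectural chromatin protein gene (180), and EIF4G3, a translation initiation factor gene (168). GSK3B, a kinase gene of the Wnt pathway (128), and EGFR, the receptor of epidermal growth factor (101), were others. In 88 of 128 stretches (68.8%) the tallest site was on the 5′ side, against 58.8% of those of 10 to 49 sites. The median share of inner sites on that side was 63.0% and 57.1%, and the counts are to be read against these shares. In 32 of the 128 (25%) the tallest site lay in part 1, which held 1425 of the 9316 sites. In 7 (5.47%) it lay in part 10, which held 693. In stretches of 10 to 49 sites it lay in part 1 in 335 of 1504 and in part 10 in 195. Whether it lay there more often than the number of sites would give was not tested. In OSBPL10, a lipid-binding protein gene, the tallest site (124) was also the 5′-most one, whereas in EGFR it lay 176 kb from the 5′ end of a span of 177 kb.

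Height also tended to be greater toward the 5′ end. Spearman's rho between height and distance from the 5′ end was negative, with taller sites nearer the 5′ end, in 85 of 128 stretches (66.4%) and positive in 43. Its median was -0.08 (quartiles -0.21 and 0.05), it was -0.3 or lower in 20 stretches and 0.3 or higher in 3, and it was within 0.1 of 0 in 51. Over all members the median height was 15 in part 1, 15 in part 4, 12 in part 9 and 13 in part 10, with quartiles that overlapped throughout. By the same rank measure the gaps between neighbours lengthened toward the 3′ end about as weakly, with a median rho of 0.08 and a positive value in 90 of 128. In stretches of 30 to 49 sites rho of height was negative in 61.7% (n = 243). When height was divided by the expected height of the tag cluster, rho was negative in 53 of 128 stretches (41.4%), so that the count turned to the other side of 50%. The expected height itself had a negative rho with distance in 91 stretches.

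The most negative values belonged to UBE2E2 and TCF12. In UBE2E2, which encodes a ubiquitin-conjugating enzyme (chromosome 3, plus strand, 23258944 to 23508857), rho was -0.521 over 76 sites. The median height there was 24 over the 39 sites nearest the 5′ end, 16 over the 22 in the middle and 10 over the last 15, when the span was cut into 3 equal parts. In TCF12 the same medians were 20, 13.5 and 9.5 (rho -0.503, 60 sites), the last from 2 sites only. With height over expected height the rho of UBE2E2 was 0.193 and that of TCF12 0.289, both reversed.

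The most positive values were found in NCK1, TULP4 and KIAA1328. In the run named for NCK1, an adaptor protein gene (chromosome 3, plus strand, 136543009 to 136725771), rho was 0.476 over 50 sites, with medians of 12, 15 and 24.5 from 5′ to 3′. Its tallest site, of height 104, lay 143 kb from the 5′ end, which is farther than the 87.6 kb length of NCK1. In the run of TULP4 with TMEM181 rho was 0.347 over 70 sites, and part 10 held 18 sites with a median height of 33, against 12 for the 19 sites of part 1. KIAA1328 (chromosome 18, plus strand, 34409901 to 34609577) had a rho of 0.345 over 50 sites, none taller than 31. With height over expected height the rho of TULP4 reversed to -0.0676, while that of NCK1 was 0.191 and that of KIAA1328 0.10. Of these 3, NCK1 and TULP4 ran beyond 1 gene.

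**Figure D4:**
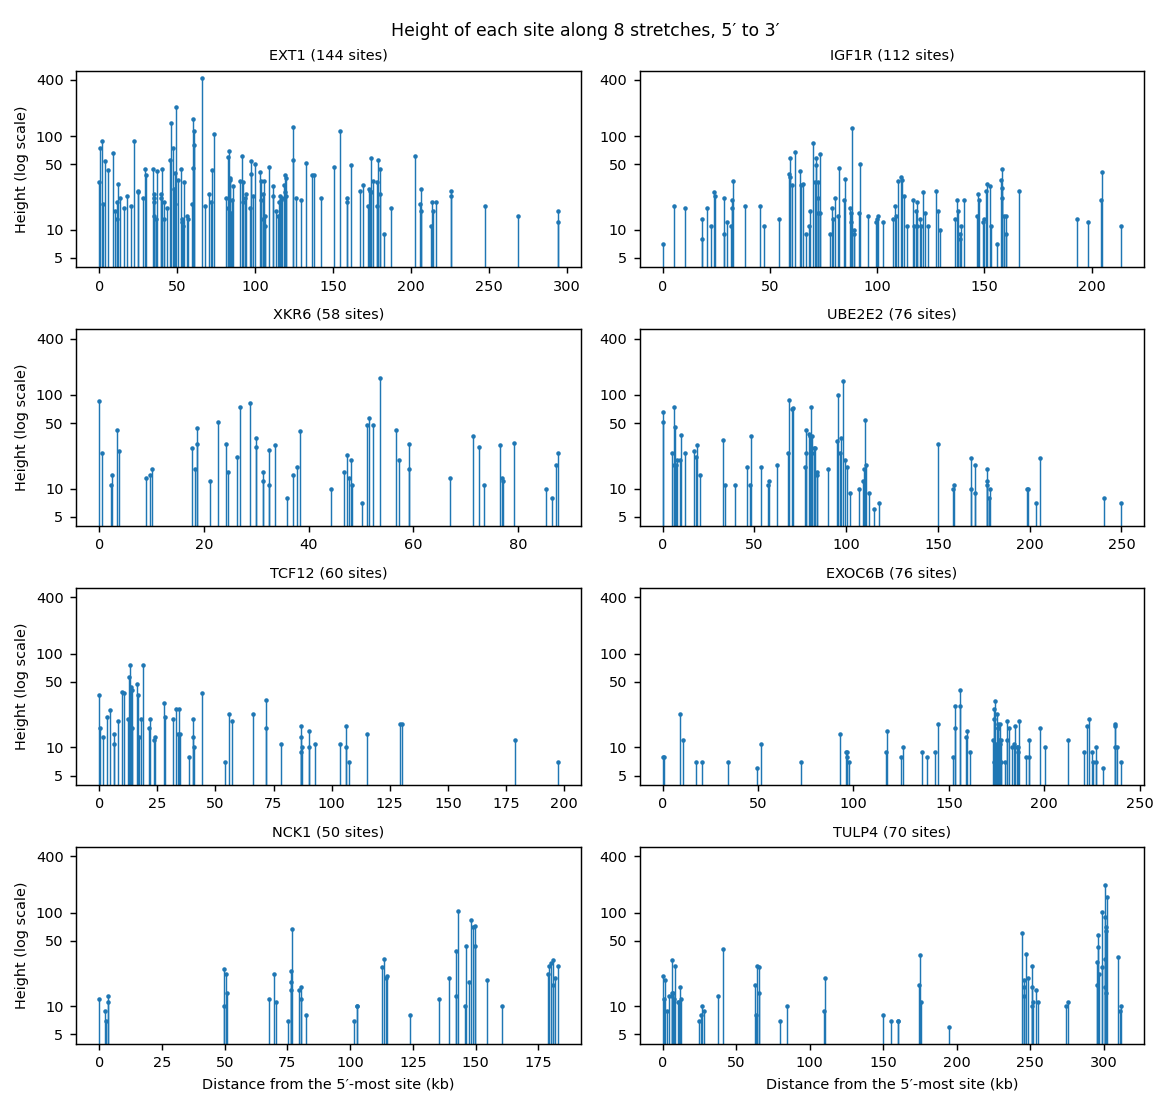
The authors' height of every site (y axis, log scale) against distance from the 5′-most site in kb (x axis) in 8 stretches. EXT1 carries the tallest site (414); UBE2E2 and TCF12 are tallest on the left side, EXOC6B is crowded on the right, and NCK1 and TULP4 are tallest on the right.

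Density and height tended to lean together. In 76 of 128 stretches more inner sites lay on the 5′ side and rho of height was negative, and in 12 both leaned to the 3′ side. In 30 stretches density leaned to the 5′ side with a positive rho, and in 7 to the 3′ side with a negative one. The count of 76 is to be read against the 106 of 128 that leaned to the 5′ side and the 85 of 128 with a negative rho. Among the 1504 stretches of 10 to 49 sites, 574 and 334 leaned the same way on the 5′ and 3′ side. In 296 and 215 the directions were opposite. Spearman's rho between the share on the 5′ side and the rho of height was -0.455 (n = 128 stretches, which share both libraries). EXT1 and PVT1, 2 large stretches, differed in lean: EXT1 had 109 of 142 inner sites on the 5′ side (76.8%) and PVT1 69 of 118 (58.5%). Their rho of height was weak, at -0.120 and 0.077. With height over expected height both were positive, at 0.146 and 0.106.

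**Figure D5:**
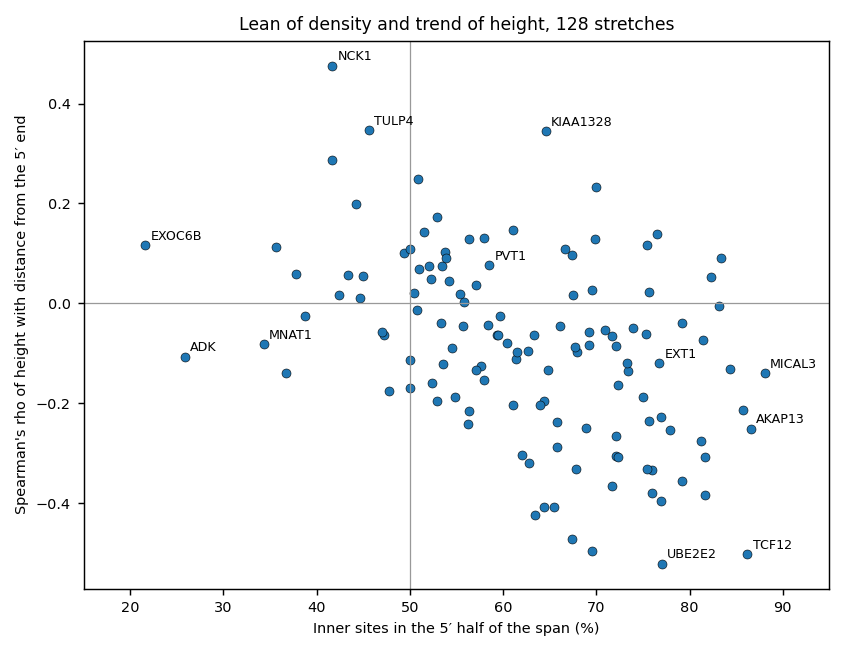
Share of inner sites on the 5′ side of the midpoint in % (x axis) against Spearman's rho of height with distance from the 5′ end (y axis) for the 128 stretches. Most points lie in the lower right part (76 of 128), with EXOC6B far to the left at 21.6% and NCK1 at the top at 0.476.

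Taller sites also sat in the crowded parts of a stretch. The rho between height and the number of other sites within 5 kb was positive in 117 of 128 stretches, with a median of 0.28 (quartiles 0.16 and 0.37). In stretches of 10 to 49 sites it was positive in 1182 of the 1495 with a value, and its median of 0.24 was nearly as high. Between neighbours the median gap was 1211 nt (quartiles 455 and 3664 nt), against 1379 nt in stretches of 10 to 49 sites. Gaps under 1 kb made up 44.7% of the 9188 gaps, and gaps over 10 kb 9.71%. The longest gap of a stretch was centred on the 3′ side in 100 of 128 stretches (78.1%), against 63.1% of those of 10 to 49 sites, its size having a median of 32.6 kb and an upper limit set by the rule. The authors' tag clusters, their own grouping of reads, numbered 6004 in the members and held 1.55 sites each. Clusters held 1.39 sites each in stretches of 10 to 49 sites and 1.32 in all sites outside the long stretches. Of the clusters of members, 67.7% held a single site, against 74.5% in stretches of 10 to 49 sites and 78.3% in all sites outside the long stretches.

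What lay beyond the ends differed between the sides. The next site beyond the 5′ end, of either strand, was a median of 220 kb away (quartiles 101 and 393 kb), and beyond the 3′ end 119 kb (63.6 and 325 kb). Past the 5′ end the next site was on the other strand in 78 cases and on the same strand in 50. Past the 3′ end these were 57 and 70, and 1 stretch was the outermost of its chromosome. A same-strand site within 100 kb, which a wider gap limit would join to the stretch, followed the 3′ end in 40 stretches and preceded the 5′ end in 7.

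The genes named for the stretches fell into several functional groups, put together after the values were seen and therefore given as counts only. Over all 128 stretches 82.8% leaned to the 5′ side and 66.4% had a negative rho of height, and the small groups below are to be read against these shares. The 10 kinase and growth factor receptor genes, such as PTK2, GSK3B, IGF1R and EGFR, had median densities of 34.6 per 100 kb, and 10 of 10 leaned to the 5′ side. Among 16 chromatin and transcription genes, such as JARID2, EHMT1, ARID1B and HMGA2, 15 leaned to the 5′ side and rho of height was negative in 14. Of 16 genes of junctions, adhesion and the cytoskeleton, such as PARD3, DLG1 and DST, 14 leaned to the 5′ side. The other 2 were CTNNA1, the alpha-catenin gene, with 47.1% on the 5′ side, and CLASP1, a microtubule regulator gene, with 49.4%.

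RNA-binding and RNA-processing genes numbered 7: RBFOX2, a splicing regulator (85 sites, 72.3% of inner sites on the 5′ side), SND1 (106 sites, 76.9%), MSI2 (66 sites, 81.3%), EIF4G3, RBM33, RSRC1 and RNGTT. All 7 had more inner sites on the 5′ side, with 72.1% in EIF4G3 and 79.2% in RSRC1 but only 55.8% in RBM33 and 51.5% in RNGTT. With the span of RBM33 and of RNGTT cut into 3 equal parts, the last part held the most inner sites (18 and 28). The 11 genes of membrane traffic, such as EXOC4, NBAS, VPS13B and COG5, had the lowest median density of these groups, 20.4 sites per 100 kb. They were not uniformly thin, with densities from 13.2 in TRAPPC9 to 53.5 in COG5. Their median heights ran from 9 to 18 around a median of 11, and 8 of them leaned to the 5′ side. Both long noncoding RNA genes leaned to the 5′ side as well, with 58.5% in PVT1 and 56.3% in FTX. In PVT1, however, the last of 3 equal parts held the most inner sites (43, against 40 in the first). The remaining 55 genes were put in no group.

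Lists of genes drawn up from the themes of the study were compared with the 134 named genes, of which 132 were coding (0.662% of coding genes). Of 14 adhesion genes, 7 had a stretch: PTK2, ASAP1, CDH13, CTNNA1, PARD3, VCL and LPP. Of 8 actin and formin genes, 3 did (FMNL2, DIAPH3, ARHGAP10), of 9 receptor genes 2 (IGF1R, EGFR) and of 8 Hippo genes 2 (STK3, TEAD1). The list for chromatin and transcription held 9 genes, of which 3 had a stretch (SMYD3, CDYL, EXT1), but EXT1, a glycosyltransferase gene, was misplaced there, and 2 of 8 remain without it. Of 9 fragile-site genes, which had a median length of 1380 kb, only IMMP2L did. The lists were made with earlier results of these sites known and hold mostly long genes, so the counts are no evidence that a theme stands out.

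Stretches were found on 22 chromosomes, and none on chromosome 19, which had 824 sites. Chromosome 8 had 15 stretches with 1282 sites, 42.6% of its 3007 sites and 13.8% of all members. On the other chromosomes with a stretch the share of sites in long stretches ran from 3.84% on chromosome 18 to 23.2% on chromosome 14. Of the 10 stretches with the most sites, 5 were on chromosome 8: EXT1, PVT1, ASAP1, STK3 and PTK2 with AGO2. Without chromosome 8, 94 of 113 stretches (83.2%) leaned to the 5′ side, and the median height of members remained 14.

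At the limit of the rule, the 8 stretches with 50 sites spanned 107 to 378 kb at 13.2 to 46.7 sites per 100 kb, and the 5 with 49 sites, just outside, spanned 119 to 305 kb at 16.1 to 41.2 per 100 kb. Their median heights ran from 9 to 18 and from 10 to 23.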

How the data were processed

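The input was 1 list of 54373 intervals of 21 nt for the series, with no library named. The score of each interval, as the authors deposited it, is a whole number named here the height. The site name, deposited in the same file as other text, holds the tag cluster, a value PH0, named here the expected height, and a P. What these stand for is not defined in the file, and no aligner or site caller is named in the sources used here. Per the submitters' processing notes, positions are of GRCh37. The midpoint of each interval gave its position. Relative position ran from the 5′-most to the 3′-most site by strand. The regions named in full were the 10 with the most sites, the 3 densest, the 3 longest, the 3 at each end of lean and of height trend, and those with the tallest sites. OSBPL10, EGFR, HMGA2, EIF4G3, GSK3B and TRAPPC9, and examples in groups, were chosen after their values were seen. Some results that fall under this rule are not reported here. Members and lists were chosen with earlier results of these data known. Trends were tested on simulated data with known leans. The share on the 5′ side came out nearer to 50% than the planted share, since a span ends at its outermost sites, and the tolerance of that test was widened after it first failed. Counted about the planted midpoint, directly from the simulated positions, the shares were near the planted ones. That count checks the simulated data and not the measure used on the sites. The gap limit of 50 kb was not applied in the simulation. No GRCh37 genome or annotation was used, so no motif and no sequence is reported. The scripts ran on pandas 2.3.3 and numpy 2.4.6 under Python 3.11.15, with scipy 1.17.1 for intervals and matplotlib 3.10.9 for plots.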

Additional observations from a re-analysis of the deposited data

How the results depend on the processing

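Values without a test were judged against 95% intervals (Wilson for shares, order statistics for medians) over stretches or sites, which are not replicates. The number of stretches was 68 with gaps of at most 20 kb, 204 from 40 sites upward, 46 from 75 sites upward and 44 in the upper 50% of sites by score, against 128. The median density was 44.5 sites per 100 kb with gaps of at most 20 kb and 24.4 with 100 kb, against 29.7. The share of stretches leaning to the 5′ side was 70.3% when judged by gaps that lengthen toward the 3′ end, against 82.8%. The share with a negative trend of height reversed to 41.4% with height over expected height, as did single trends: -0.0676 in TULP4, 0.193 in UBE2E2 and 0.289 in TCF12. The cause was not tested. The other 28 values of these summaries and 21 of single stretches stayed within their interval (counts, within 1.5 times) or kept their sign. Sites tied in score at the limit of the upper 50% were chosen at random, a choice made after seeing that alternative's value with ties broken by chromosome name. Leaving out chromosome 8 or stretches of more than 1 gene, and the alternatives for single stretches, were chosen after seeing the data. No paired analysis was possible because heights were given as 1 value per site with no library named, and no replicate was left out for the same reason. Alternatives for gene overlap and motifs were not run without a GRCh37 reference. Library depth is unknown here.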
